A study of Mus musculus with 8 samples.

Results

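Amino acid transporters are membrane proteins that carry amino acids across the plasma membrane, and the 10 transporter genes described here are Slc7a5, Slc3a2, Slc7a11, Slc7a1, Slc7a3, Slc1a4, Slc1a5, Slc38a1, Slc38a2 and Slc6a9. They were taken by symbol from a deposited table of 18306 genes, and each symbol matched a single row. The cells were C3H10T1/2, an established mesenchymal line of mouse embryo origin that can take on fat, bone, cartilage or muscle properties in culture. All cells were held without serum for 24 h. The S1P group then received 5 µM sphingosine 1-phosphate (S1P, a signalling lipid with its own G protein-coupled receptors) for 24 h, and the vehicle group received 0.1% fatty acid-free bovine serum albumin for the same time. Each group held 4 RNA sequencing libraries, numbered 1 to 4 for vehicle and 5 to 8 for S1P. Whether libraries of a group are separate cultures is not in the labels; p-values therefore describe the spread between these samples alone, which may be technical. The labels describe a single cell line at a single dose and time.

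Several of these carriers work in pairs or in families. Slc3a2 encodes the CD98 heavy chain, a glycoprotein that brings light chains to the cell surface, where Slc7a5 forms the exchanger of large neutral amino acids such as leucine, and Slc7a11 forms the exchanger that imports cystine for glutathione synthesis. Slc7a1 and Slc7a3 carry arginine and lysine, Slc1a4 and Slc1a5 exchange small neutral amino acids including serine and glutamine, Slc38a1 and Slc38a2 take up neutral amino acids with sodium, and Slc6a9 takes up glycine. Many of these genes are known targets of ATF4, a transcription factor of the integrated stress response that is made when amino acids run short, and Slc7a11 is also a known target of NRF2, a factor of the oxidative stress response. Leucine brought in by the Slc7a5 exchanger is a known input to the growth kinase complex mTORC1.

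Promoter sequences were available for 6 of the 10 genes (Slc3a2, Slc7a11, Slc7a1, Slc1a4, Slc38a2 and Slc6a9), from RefSeq on build GRCm38.p6, in windows of 250 bases before to 50 bases after each annotated start. Entries for Slc7a5, Slc7a3, Slc1a5 and Slc38a1 were not found under these symbols. The windows were searched on both strands for TGATGNAA (the composite element of ATF4 and C/EBP factors), CACGTG (the E-box of MYC family factors, which reads the same on both strands) and TGACNNNGC (the core of the antioxidant response element used by NRF2). TGATGNAA was present in 2 of the 6 genes, against 4.5% of all genes in the promoter table. CACGTG was present in 0 of 6, against 8.1% of all genes, and TGACNNNGC in 3 of 6 (Slc38a2, Slc6a9 and Slc7a1), against 14.0% of all genes. No matches of different motifs overlapped in these genes. The upstream stretches of Slc7a11 and Slc1a4 are printed because they hold the TGATGNAA matches, and that of Slc7a1 because this gene rose after S1P. Each ends at the base before the start, except that the match of Slc1a4 crosses it. Capitals mark the motif matches: TGATGNAA in Slc7a11 and Slc1a4, and TGACNNNGC on the reverse strand in Slc7a1.
Slc7a11 (chr3:50443614-50443713, GRCm38.p6, minus strand): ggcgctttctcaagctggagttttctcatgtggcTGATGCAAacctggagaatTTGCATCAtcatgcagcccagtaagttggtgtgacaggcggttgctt
Slc1a4 (chr11:20332710-20332813, GRCm38.p6, minus strand): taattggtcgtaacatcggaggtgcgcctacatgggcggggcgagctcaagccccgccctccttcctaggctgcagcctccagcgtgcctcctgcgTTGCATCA
Slc7a1 (chr5:148399905-148400004, GRCm38.p6, minus strand): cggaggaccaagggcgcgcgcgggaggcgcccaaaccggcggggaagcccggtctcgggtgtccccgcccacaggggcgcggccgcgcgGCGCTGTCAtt
Slc7a11 held 2 matches, 1 on each strand, whose first bases lay 66 and 47 bases before the start. In Slc1a4 the single match ran from 4 bases before the start to 3 bases past it. Slc7a1 has 2 annotated starts in the table, and the stretch shown is that of the start at position 148399904. A match is a run of letters in a window and was not tested for binding.

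The deposited counts summed to 13750303 to 13761544 per library, and 11844 genes passed the filter on low counts, all 10 transporter genes among them. Levels below are in CPM (a gene's counts scaled to a common library size, with composition factors), and 3 counts, the most that a count of 0 leaves possible by counting error, correspond to 0.213 to 0.223 CPM. Vehicle replicate 4 stood apart on the next-to-leading principal component (29.0% of the variance), and its difference from the rest of its group went with GC content over 11634 genes (r = 0.77 across genes, which are not independent replicates). The transporter transcripts span 40.7% GC (Slc7a11) to 57.0% (Slc6a9). All 11 mesenchymal markers on the list passed the filter, with summed levels of 28383 to 34858 CPM in vehicle and 26280 to 32937 CPM after S1P, led by Fn1 and Col1a2 (log2 fold changes 0.23 and 0.04). None of the 11 was called by edgeR and 4 had an unadjusted p under 0.05. DESeq2, which called 15% of all tested genes, called 2 lower, and limma-voom (8.65%) called 1 lower. The median log2 fold change was -0.16. Col3a1 and Pdgfra, picked after their values were seen, had log2 fold changes of -0.67 and -1.04 (adjusted p = 0.0571 and 0.0853), and the groups did not overlap for Col3a1. Defining markers of other cell types were near 0, with Ptprc at up to 0.144 CPM, Pecam1 at up to 0.426 CPM and Krt14 at up to 0.0718 CPM. Of 9 blood cell markers 6 were in the table, summing to 14.5 to 24.4 CPM in vehicle and 9.30 to 15.1 CPM after S1P, and the 7 endothelial markers summed to 36.6 to 77.0 and 17.5 to 44.1 CPM. The members of these lists that passed the filter, Cd14, Lyz2 and Tek, had log2 fold changes of -0.71, -0.60 and -0.81 and were not called by edgeR, while DESeq2 called Cd14 lower (adjusted p = 0.0420, against 0.0544 to 0.275 in the other alternative fits). For Cd14 the groups did not overlap, and the part of these markers in the results below was not tested. Of 7 epithelial markers 2 were in the table, and only Cdh1 was tested (1.11 to 2.83 CPM over all libraries). A level in these libraries cannot tell fewer cells with a transcript from less transcript per cell.

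After S1P, 2 of the 10 transporter genes rose, Slc7a5 by 3.71-fold and Slc7a1 by 1.71-fold, and none fell (edgeR quasi-likelihood test, with every adjusted p below after Benjamini and Hochberg over the 11844 genes, 0.0165 and 0.0144; called means under 0.05). Over all tested genes 8.5% were called, 5.6% higher and 2.9% lower. Before adjustment, 5 of the 10 had a p under 0.05, with Slc1a4, Slc38a1 and, in the downward direction, Slc7a3 added, against 24.9% of all tested genes. DESeq2 and limma-voom each called 3 higher (Slc7a5, Slc7a1 and Slc1a4) and 0 lower. Over all tested genes DESeq2 called 15% and limma-voom 8.65%, in either direction. The median log2 fold change was 0.32 over the 10 genes and -0.04 over all tested genes. Groups did not overlap for 5 of the 10, with Slc7a5, Slc7a1, Slc1a4 and Slc38a1 higher and Slc7a3 lower after S1P, and over all tested genes this held for 11.9% in the upward and 7.21% in the downward direction. Slc7a3, at 6 to 20 counts a library, met the count filter through the vehicle libraries, where it was higher. Its place in both counts of 5 is therefore no support for a fall. Summed over the 10 genes, the level was 679 to 789 CPM in vehicle and 892 to 1096 CPM after S1P.

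**Figure D1:**
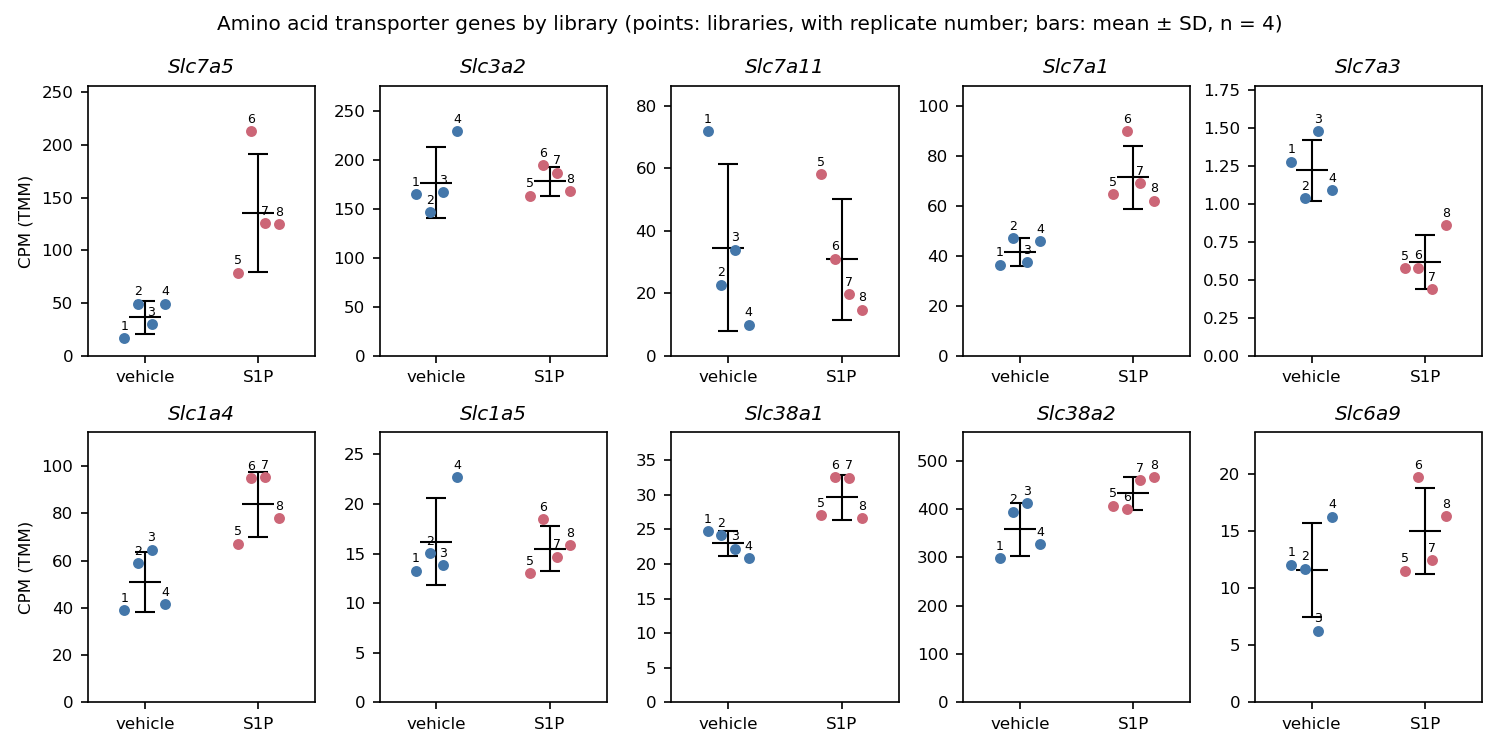
Level of each transporter gene in CPM (vertical axes, from 0) in the 4 vehicle (blue) and 4 S1P libraries (red), each point a library with its replicate number, and bars the mean ± SD. Slc7a5 sits at 17.1 to 49.7 CPM in vehicle and 78.9 to 213 CPM after S1P, while the heavy chain Slc3a2 overlaps between the groups and Slc7a11 spreads widely within both.

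**Figure D2:**
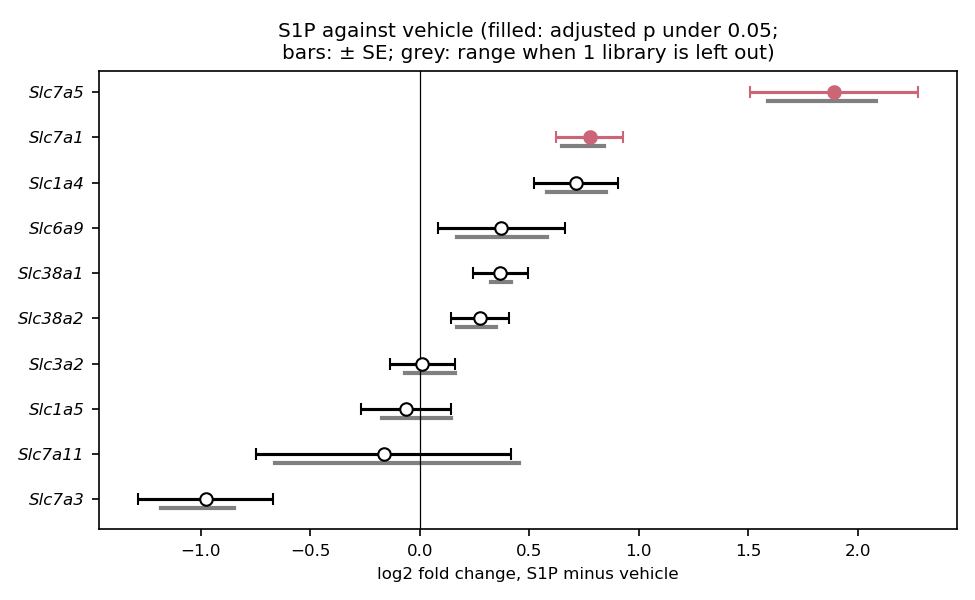
Log2 fold change of each transporter gene, S1P minus vehicle (horizontal axis), with its standard error, filled where the adjusted p was under 0.05; grey bars give the range when a single library was left out. The grey ranges of Slc3a2, Slc1a5 and Slc7a11 cross 0 and those of the other 7 genes do not.

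The light chain Slc7a5 (ENSMUSG00000040010, chromosome 8, 124404852 to 124431794 in mm9) showed the largest difference of the 10. It stood at 17.1, 49.6, 30.0 and 49.7 CPM in vehicle replicates 1 to 4 and at 78.9, 213, 126 and 125 CPM in S1P replicates 5 to 8. Every S1P library was above every vehicle library, with S1P replicate 6 highest and vehicle replicate 1 lowest. The mean rose from 36.6 ± 15.9 to 136 ± 56.1 CPM (SD, n = 4 each; log2 fold change 1.89, SE 0.38), which ranked 44 from the top among the 11844 tested genes. Without S1P replicate 6 the log2 fold change of Slc7a5 was 1.59 and the call was lost (adjusted p = 0.0517), whereas it was called in the other 16 alternative fits, with adjusted p from 2.22e-05 to 0.0456.

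Its partner, the heavy chain Slc3a2 (ENSMUSG00000010095, chromosome 19, 8781172 to 8798059), did not pass the test. Vehicle libraries held 165, 147, 167 and 229.9 CPM and S1P libraries 164, 195, 187 and 169 CPM. The groups overlapped, and the highest value was that of vehicle replicate 4. The means were 177 ± 36.3 and 179 ± 14.9 CPM (SD, n = 4 each), with a log2 fold change of 0.01 and SE 0.15 (adjusted p = 0.969). Without vehicle replicate 4 the log2 fold change was 0.16, and with the size factors of DESeq2 it was -0.01. Its span shares 274 bases with the RNA gene Snhg1 (mean of 819.9 counts), in a search that did not take account of strand. This may make its value uncertain, and whether reads of Snhg1 were counted for Slc3a2 was not tested.

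Slc7a11, the cystine light chain (ENSMUSG00000027737, chromosome 3, 50168658 to 50247735), varied more within the groups than between them. It stood at 71.9, 22.8, 34.0 and 9.95 CPM in vehicle and at 58.1, 31.0, 19.8 and 14.8 CPM after S1P. Vehicle replicate 1 and S1P replicate 5 were high, and the highest vehicle library was 7.22 times the lowest. The means were 34.6 ± 26.7 and 30.9 ± 19.4 CPM (SD, n = 4 each; log2 fold change -0.16, SE 0.58, adjusted p = 0.880). Its sign depended on single libraries: the log2 fold change of Slc7a11 was 0.45 without vehicle replicate 1 and -0.66 without S1P replicate 5, with no call in either fit (adjusted p = 0.617 and 0.512). This gene, whose upstream stretch printed above holds a pair of TGATGNAA matches, was not called in any of the 17 alternative fits.

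Levels of different genes can be compared only per length, here as CPM per kb of the longest annotated coding transcript (GENCODE M21). Which transcripts these cells used was not tested, so the order of different genes holds on this scale only. On this scale Slc7a5 was 0.0829, 0.270, 0.143 and 0.173 of Slc3a2 in the vehicle libraries and 0.386, 0.874, 0.538 and 0.593 in the S1P libraries, so that the groups did not overlap. The mean log2 ratio was -2.70 ± 0.70 in vehicle and -0.80 ± 0.49 after S1P (SD, n = 4 each), a difference of 1.90 (exact two-sided permutation test, p = 0.0286, the smallest that 4 libraries against 4 allow, and 0.0857 adjusted over the 3 ratios computed). For Slc7a11 to Slc3a2 the difference in log2 ratio was -0.05 (exact two-sided permutation test, p = 0.971). For Slc7a5 to Slc7a11 it was 1.95 (exact two-sided permutation test, p = 0.143, and 0.214 adjusted over the 3). These ratios were chosen after the gene values had been seen. Slc3a2 had a log2 fold change of 0.01 and Slc7a5 of 1.89. The difference of 1.90 thus restates that of Slc7a5, and its p is no further support.

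Some other light chains of the heavy chain were measured too. Slc7a8 and Slc7a10, also light chains, were not found under these symbols, and the sums and shares below leave them out. Slc7a6, which exchanges cationic for neutral amino acids, held 84.4 to 124 CPM in vehicle and 106 to 139 CPM after S1P and did not pass the test (log2 fold change 0.26). Of the summed level per kb of Slc7a5, Slc7a6, Slc7a7 and Slc7a11, Slc7a5 made up 24.4% ± 9.98 in vehicle and 49.9% ± 9.52 after S1P (SD, n = 4 each), and Slc7a6 made up 64.7% ± 5.34 and 44.6% ± 7.34. The sum itself was 35.9 to 45.8 CPM per kb in vehicle and 57.3 to 97.6 after S1P, beside 52.2 to 81.7 and 58.2 to 69.4 CPM per kb of Slc3a2. On the scale of the longest annotated transcripts, the 4 light chains summed here were below the heavy chain in 4 of 4 vehicle libraries. They were above it in 3 of 4 S1P libraries. In S1P replicate 5 they were at 57.3, just under the heavy chain at 58.2.

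**Figure D3:**
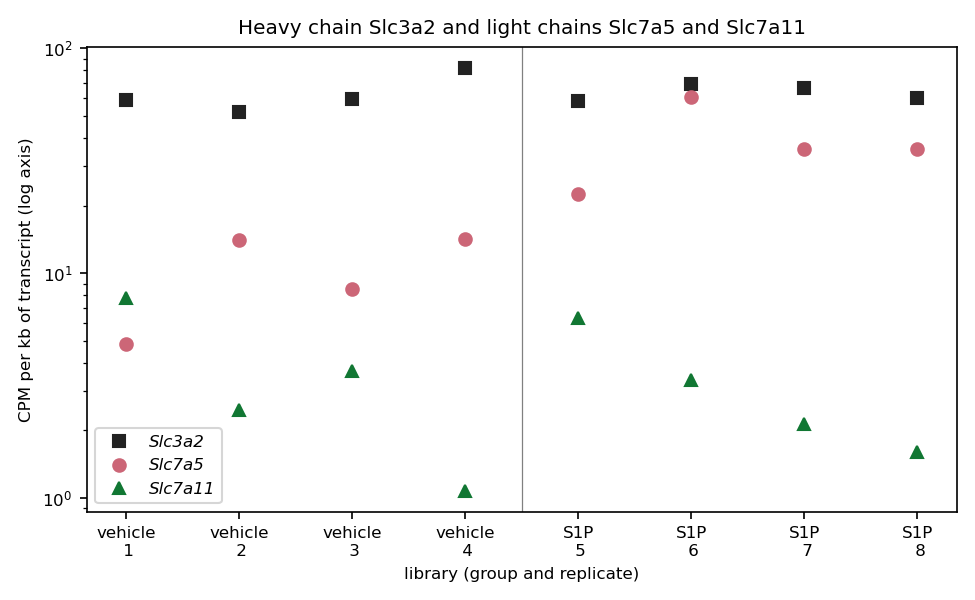
Level per kb of transcript (vertical log axis) of the heavy chain Slc3a2 and the light chains Slc7a5 and Slc7a11 in each of the 8 libraries (horizontal axis). Slc7a5 rises from 4.87 to 14.1 CPM per kb in vehicle to 22.4 to 60.6 after S1P towards a heavy chain at 52.2 to 81.7, and Slc7a11 exceeds Slc7a5 only in vehicle replicate 1.

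Among the cationic carriers, Slc7a1 (ENSMUSG00000041313, chromosome 5, 149138786 to 149211680) rose. It held 36.4, 47.1, 37.4 and 45.9 CPM in vehicle and 64.6, 89.9, 69.2 and 62.0 CPM after S1P, with no overlap and S1P replicate 6 again highest. The mean went from 41.7 ± 5.58 to 71.4 ± 12.7 CPM (SD, n = 4 each; log2 fold change 0.78, SE 0.15), and it was called in all 17 alternative fits, with log2 fold changes of 0.65 to 0.87. Slc7a3, its relative with a narrower tissue range (ENSMUSG00000031297, chromosome X, 98274349 to 98281559), was close to the limit of detection at 14 to 20 counts in vehicle (1.04 to 1.48 CPM) and 6 to 12 counts after S1P (0.441 to 0.862 CPM). Its groups did not overlap, but it met the count filter through the vehicle libraries, and it was not called (log2 fold change -0.98, SE 0.31, adjusted p = 0.0851). Adjustment for GC content gave an adjusted p of 0.0489 in edgeR, against up to 0.222 in the other fits. Slc7a2, a cationic carrier of the same family outside the 10, stood at 770, 608, 764 and 404 CPM in vehicle and 515, 306, 373 and 338 CPM after S1P. It was not called (log2 fold change -0.73, adjusted p = 0.0873), but the log2 fold change of Slc7a2 passed in DESeq2 (adjusted p = 0.0166) and in edgeR without vehicle replicate 4 (0.0141) or S1P replicate 5 (0.0489). In edgeR Slc7a2 also passed without both libraries (adjusted p = 0.0038), with GC adjustment (0.0168) and with a surrogate variable (0.0175). The other 11 alternative fits did not call it. The share of Slc7a1 in the summed level per kb of Slc7a1, Slc7a2 and Slc7a3 was 4.94% to 11.04% in vehicle and 12.1% to 24.4% after S1P.

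The neutral exchangers of the SLC1 family differed in their values. Slc1a4, which carries alanine, serine and cysteine (ENSMUSG00000020142, chromosome 11, 20201983 to 20232916), stood at 39.1, 59.0, 64.6 and 41.6 CPM in vehicle and 67.2, 95.004, 95.2 and 77.9 CPM after S1P. The groups did not overlap, though vehicle replicate 3 and S1P replicate 5 lay close together. Its means were 51.1 ± 12.6 and 83.8 ± 13.7 CPM (SD, n = 4 each; log2 fold change 0.71, SE 0.19), just outside the threshold (adjusted p = 0.0509). It was called in 8 of 17 alternative fits, and its adjusted p ranged from 0.0123 in DESeq2 to 0.155 in edgeR without S1P replicate 6. Slc1a5, the glutamine exchanger (ENSMUSG00000001918, chromosome 7, 17366495 to 17383823), held 13.3, 15.1, 13.8 and 22.7 CPM in vehicle and 13.0, 18.5, 14.7 and 15.9 CPM after S1P. The groups overlapped, with vehicle replicate 4 highest, and the log2 fold change was -0.06 (SE 0.20, adjusted p = 0.866). Without that library it was 0.14 and with GC adjustment 0.16.

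Slc38a1 and Slc38a2, the sodium-coupled carriers, are neighbours on chromosome 15, 44080 bases apart with no other gene of the table between them. Slc38a1 (ENSMUSG00000023169, 96401649 to 96473544) stood at 24.7, 24.1, 22.2 and 20.8 CPM in vehicle and 27.1, 32.5, 32.5 and 26.6 CPM after S1P. Every S1P library was above every vehicle library, by a small margin, and the gene was not called (log2 fold change 0.37, SE 0.13, adjusted p = 0.105). Slc38a2, the form known to be induced when amino acids are scarce (ENSMUSG00000022462, 96517625 to 96530329), held 298, 395, 412 and 327 CPM in vehicle and 407, 400.1, 459.5 and 465 CPM after S1P. The groups overlapped through vehicle replicate 3, and the gene was not called (log2 fold change 0.27, SE 0.13, adjusted p = 0.234). Slc38a2 made up 94.4% to 96.4% of the summed level per kb of Slc38a1, Slc38a2 and Slc38a4 in vehicle and 94.3% to 95.8% after S1P.

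Slc6a9, the glycine carrier (ENSMUSG00000028542, chromosome 4, 117506911 to 117548003), held 12.1, 11.7, 6.29 and 16.3 CPM in vehicle and 11.6, 19.7, 12.5 and 16.3 CPM after S1P. The groups overlapped, vehicle replicate 3 was lowest, and the gene was not called (log2 fold change 0.37, SE 0.29, adjusted p = 0.446). Its span shares 6339 bases with B4galt2 (mean of 532.6 counts) and 6434 with Ccdc24, again without account of strand. Its counts may be uncertain to that extent, which was not tested. Vehicle replicate 4 was the highest vehicle library for Slc7a5, Slc3a2, Slc1a5 and Slc6a9, whose transcripts are 53.4% to 57.0% GC, and the lowest for Slc7a11 (40.7%) and Slc38a1 (48.5%). For Slc7a5 its lead over vehicle replicate 2 was small (49.7 against 49.6 CPM). It was neither highest nor lowest for Slc7a1, Slc7a3, Slc1a4 (52.9%) and Slc38a2 (43.9%). With GC adjustment the log2 fold change of Slc7a5 was 2.09 and that of Slc7a1 0.80, and both were called.

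Per length, the order in vehicle was Slc38a2 (76.8 ± 11.7 CPM per kb), Slc3a2 (63.0 ± 12.9), Slc1a4 (13.0 ± 3.22), Slc7a5 (10.4 ± 4.53), Slc1a5 (5.87 ± 1.58), Slc7a1 (5.81 ± 0.778), Slc7a11 (3.76 ± 2.89), Slc6a9 (3.33 ± 1.18), Slc38a1 (3.16 ± 0.244) and Slc7a3 (0.444 ± 0.0729; all SD, n = 4). The libraries of neighbours in this order overlapped except between Slc3a2 and Slc1a4 and between Slc38a1 and Slc7a3. After S1P, Slc7a5 (38.6 ± 16.0 CPM per kb) stood in the third place, ahead of Slc1a4 (21.3 ± 3.50). Their ranges over the S1P libraries overlapped, but within each S1P library Slc7a5 was the higher of the pair. Slc7a1 (9.95 ± 1.77) stood above Slc1a5 (5.61 ± 0.832) without overlap.

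**Figure D4:**
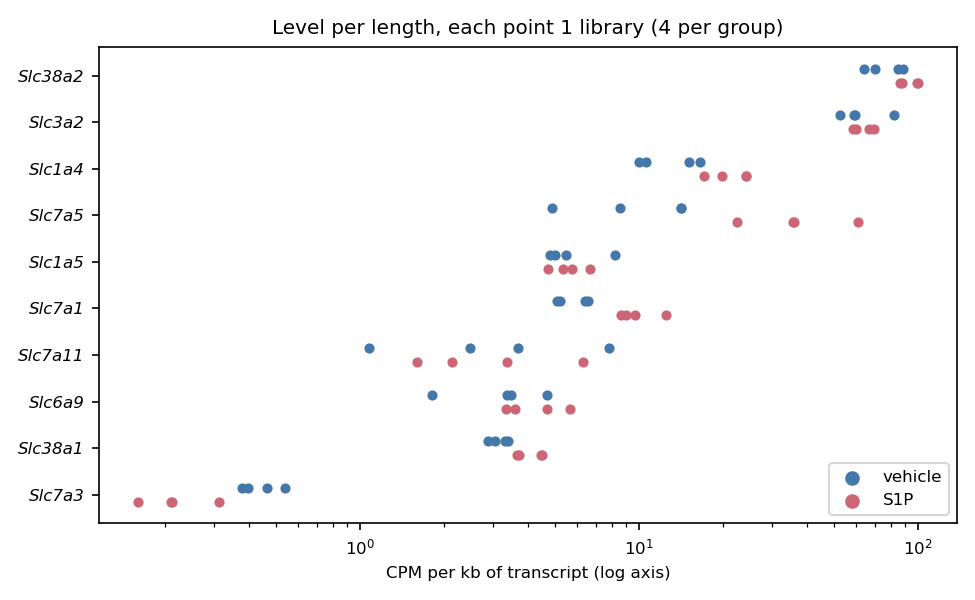
Level per kb of transcript (horizontal log axis) of the 10 transporter genes in each vehicle (blue) and S1P (red) library, ordered by the vehicle mean. Slc38a2 and Slc3a2 lie above 50 CPM per kb in every library, and Slc7a5 moves from between Slc1a4 and Slc1a5 to above most Slc1a4 values.

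The other genes of amino acid handling were counted from lists in the same fit, and lists of the carriers outside the 10 held no called gene. Of 13 tested plasma membrane carriers, 0 were called by edgeR or limma-voom and 4 had an unadjusted p under 0.05. DESeq2, which called 15% of all tested genes, called 1 of the carriers lower. In edgeR, leaving out vehicle replicate 4 gave 1 higher and 3 lower. Leaving out S1P replicate 5 gave 0 higher and 1 lower, and leaving out both gave 1 higher and 5 lower. There were 0 higher and 2 lower with GC adjustment and 1 higher and 2 lower with a surrogate variable. The median log2 fold change was -0.16, and the most abundant members were the taurine carrier Slc6a6, at 584 to 913 CPM in vehicle and 923 to 1125 CPM after S1P (log2 fold change 0.42, adjusted p = 0.137), and Slc7a2 as given above. Of 16 tested lysosomal and mitochondrial carriers, 0 were called by edgeR or limma-voom and 3 had an unadjusted p under 0.05. This list also holds Slc29a3, a nucleoside carrier, which was not called by edgeR. DESeq2 called 1 of the 16 higher and 2 lower, while without vehicle replicate 4 there were 1 higher and 1 lower. Their median was -0.16, and the sideroflexin Sfxn3 (129 to 159 CPM in vehicle, 103 to 140 CPM after S1P) and the aspartate-glutamate carrier Slc25a12 (80.0 to 84.4 and 69.3 to 82.4 CPM) were the most abundant.

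Enzymes of amino acid synthesis held more called genes than any other list counted here. Of 24 tested, 6 rose (25%, against 5.6% of all tested genes) and 0 fell (edgeR), with a median log2 fold change of 0.40. Psat1, of serine synthesis, stood at 55.5, 143, 101 and 121 CPM in vehicle and 271, 538, 332 and 369 CPM after S1P (log2 fold change 1.84). Asns, the asparagine synthetase, stood at 42.4, 82.1, 68.1 and 50.9 CPM in vehicle and 102, 236, 175 and 166 CPM after S1P (log2 fold change 1.48). Both kept their calls without any single library. Bcat1, the branched-chain aminotransferase that acts on leucine, rose 3.14-fold, from 15.7 ± 6.33 to 49.3 ± 17.1 CPM (SD, n = 4 each). Cth, which makes cysteine, rose 2.13-fold, from 4.34 ± 1.41 to 9.25 ± 2.19 CPM. Bcat1 was no longer called with S1P replicate 6, 7 or 8 left out (adjusted p at most 0.0731), and Cth kept it only without vehicle replicate 3 or 4 among the fits that left out 1 library (up to 0.130). The count of risers was 2 without S1P replicate 6, 7 or 8, 3 without vehicle replicate 1 or 2, 10 without vehicle replicate 4 or with GC adjustment and 11 with a surrogate variable. Leaving out vehicle replicate 4 together with S1P replicate 5 gave 12 higher and 1 lower. The share of all tested genes called moved as well, from 8.5% to 15.5% without vehicle replicate 4, 16.0% with GC adjustment, 20.8% with a surrogate variable and 17.8% with both libraries left out, and it was 3.63% to 4.68% without S1P replicate 6, 7 or 8.

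Of 19 tested sensors, factors and effectors of the ATF4 pathway, 3 rose (15.8%, against 5.6% of all tested genes) and 0 fell. Their median log2 fold change was 0.14. Atf4 itself stood at 127, 135, 156 and 140 CPM in vehicle and 220.1, 254, 243 and 214 CPM after S1P, without overlap (log2 fold change 0.74, SE 0.11, adjusted p = 0.0046), and it was called in all 17 alternative fits. The pseudokinase Trib3 rose 3.93-fold, from 3.28 ± 1.68 to 12.9 ± 6.20 CPM (SD, n = 4 each). Atf5, a related factor, rose 2.38-fold, from 42.1 ± 13.5 to 100.3 ± 44.3 CPM, although S1P replicate 5 (58.6 CPM) lay below vehicle replicate 2 (60.1 CPM). Trib3 was no longer called with vehicle replicate 2 or 3 or S1P replicate 6, 7 or 8 left out (adjusted p at most 0.0936), and Atf5 kept it, with a single library left out, only without vehicle replicate 2 or S1P replicate 5 (up to 0.108). Only 1 gene of the list was called when vehicle replicate 3 or S1P replicate 6, 7 or 8 was left out, and 5 higher and 1 lower when vehicle replicate 4 and S1P replicate 5 were left out together. Ddit3, another factor of the pathway chosen after its value was seen, was at 35.4 ± 10.4 and 34.9 ± 4.19 CPM (SD, n = 4 each; log2 fold change -0.02).

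Of 28 tested mTORC1 and amino acid sensing genes, 0 were called by edgeR or limma-voom and 4 had an unadjusted p under 0.05. DESeq2, which called 15% of all tested genes, called 2 lower. In edgeR 1 was higher without vehicle replicate 4 and 2 were lower without S1P replicate 5. The median log2 fold change was -0.15. The most abundant were Rragc, a Rag GTPase (log2 fold change -0.04), and Seh1l, a subunit of the complex that acts on the Rag regulators (0.17). Of 10 tested MYC family genes and partners, 0 were called by edgeR or limma-voom and 4 had an unadjusted p under 0.05. DESeq2, with its 15% of all tested genes called, called 2 lower. In edgeR 1 was lower without vehicle replicate 1, and 1 was higher and 1 lower without vehicle replicate 4. Myc, a factor known to act on Slc7a5 and Slc1a5, stood at 23.5, 24.9, 28.2 and 57.5 CPM in vehicle and 34.4, 36.4, 29.7 and 28.5 CPM after S1P. Vehicle replicate 4 was the high library, and the log2 fold change was -0.06 with it and 0.34 without it, with no call in either fit (adjusted p = 0.915 and 0.0873). Mxd4 and Mga, the most abundant genes of this list, had log2 fold changes of -0.44 and -0.07 and were not called. Mycn was not found under that symbol.

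**Figure D5:**
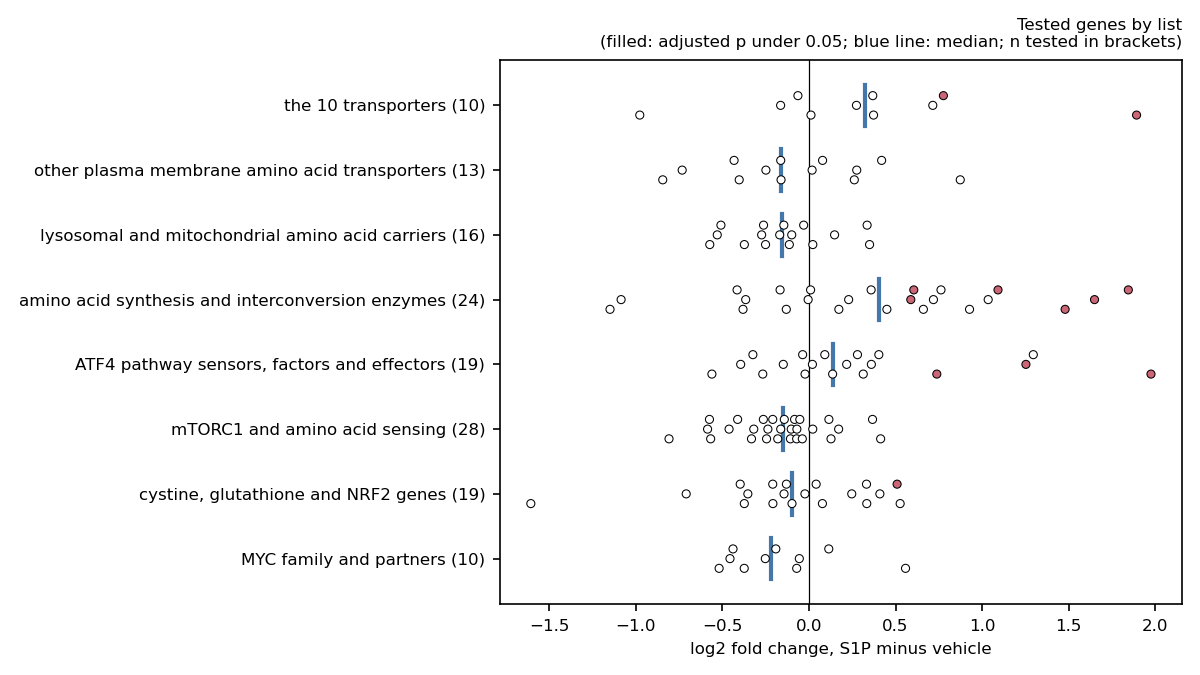
Log2 fold change, S1P minus vehicle (horizontal axis), of each tested gene of the 10 transporters and of 7 lists (rows, number tested in brackets), filled where the adjusted p was under 0.05, with the list median as a blue line. Filled points lie to the right of 0 and belong to the transporters, the synthesis enzymes (6 of 24), the ATF4 pathway (3 of 19) and the NRF2 list (1 of 19).

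The libraries in which Slc7a5 was lowest and highest were shared by many of the enzymes. Slc7a5 was lowest in vehicle replicate 1 among the vehicle libraries and highest in S1P replicate 6 among the S1P libraries, and so were 11 of 24 synthesis enzymes (among them Asns, Psat1, Phgdh, Shmt2 and Bcat1) and 6 of 19 ATF4 pathway genes (Atf4, Atf5, Trib3, Chac1, Eif4ebp1 and Nupr1). Over all tested genes 8.26% had this pair of libraries, 0 of the 13 other plasma membrane carriers had it, and 3 of 10 MYC family genes and partners did (Myc, Mxd3 and Mlxip). Among the 10 transporters it held for Slc7a5, Slc7a1 and Slc1a5.

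Slc7a11 followed another pair of libraries. It was highest in vehicle replicate 1 and in S1P replicate 5 within their groups, as were 10 of 19 cystine, glutathione and NRF2 genes (Gclc, Gclm, Nqo1, Hmox1, Txnrd1, Srxn1, Me1, Mgst1, Gsta4 and Abcc1), against 11.8% of all tested genes. Gclc, which makes the glutathione precursor, stood at 146, 42.8, 47.4 and 31.7 CPM in vehicle and 115, 46.2, 41.3 and 39.8 CPM after S1P. Txnrd1, a thioredoxin reductase and with Nfe2l2 the most abundant of the list, stood at 336, 201, 212 and 197 CPM in vehicle and 469.9, 283, 245 and 259 CPM after S1P (log2 fold change 0.41, not called). Nfe2l2, which encodes NRF2 itself, had a log2 fold change of -0.35 and was not called. Of the 19 genes 1 rose (5.26%, close to the 5.6% of all tested genes), the glutathione reductase Gsr. It went from 63.9 ± 9.31 to 90.8 ± 9.99 CPM (SD, n = 4 each; edgeR adjusted p = 0.0446). Gsr was not among the 10 that shared these libraries. Leaving out vehicle replicate 1 or 2, or any of S1P replicates 6, 7 and 8, ended its call. Both library patterns were chosen after the values had been seen and are descriptions with no test. What set these libraries apart was not tested.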

How the data were processed

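RNA from 4 vehicle and 4 S1P samples was sequenced, and the authors deposited whole-number counts per Ensembl gene with mm9 coordinates. STAR 2.5.3a and the mm9 build are named in the submitters' processing notes. For the counting tool and annotation the sources used here give nothing. On strand there is only the label "sense" on the deposit, which may mean that sense-strand reads alone were counted. The strand setting itself was not found. The nearly equal totals (spread of 0.0818%) resemble libraries reduced to a common size, so the original depth is unknown. Columns were matched to samples by title. Genes were kept with filterByExpr (minimum count of 10), scaled by TMM and tested with edgeR 4.0.16 (robust quasi-likelihood, R 4.3.3), treatment as the only term, Benjamini-Hochberg adjusted over all 11844 genes, threshold 0.05. A standard error is the log2 fold change divided by the root of F. Alternatives used DESeq2 1.42.0, limma 3.58.1, sva 3.50.0, other scaling and filters, leaving out libraries and, chosen after the data were seen, loess offsets on transcript GC content. Lengths and GC came from GENCODE M21, by Ensembl identifier (95.6% matched). The transporters and lists were chosen with earlier results of these data known. Named from each list are up to 4 called genes with the largest change, or the 2 most abundant tested genes where fewer than 2 were called, with Myc, Mycn and Atf4. Other genes, among them Slc7a6, Gclc, Gclm, Srxn1, Hmox1 and Gsr, were named outside this rule, with their values known. The limit of 3 counts covers counting error only, while SDs and standard errors also take in differences between libraries.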

Additional observations from a re-analysis of the deposited data

Results flagged for a closer look

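In groups of 4 libraries, a library was singled out where its gap to the nearest other exceeded 0.829 of the group's range, which chance does in about 1 group in 20. Of 86 such checks 13 met this. Some of the genes checked were named with their values known, and genes measured in the same libraries are not independent. The 13 of 86 can therefore not be set against 1 in 20. In S1P replicate 5 the log2 ratio of Slc7a5 to Slc7a11 per kb was 1.83, against 4.06 to 4.47 in the other S1P libraries.

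Genes of the NRF2 list were high in the same library, with Nfe2l2 at 472 CPM (others 328 to 336), Txnrd1 at 469.9 (245 to 283), Gclc at 115 (39.8 to 46.2), Gclm at 82.95 (41.9 to 45.4), Srxn1 at 134 (60.1 to 70.2) and Hmox1 at 144 (40.4 to 52.1). Vehicle replicate 1 was high for Txnrd1 at 336 CPM (197 to 212) and Gclc at 146 (31.7 to 47.4). Vehicle replicate 4 was high for Myc at 57.5 CPM (23.5 to 28.2) and low for Mga at 115 CPM (176 to 184). Cth reached 12.5 CPM in S1P replicate 6 (7.78 to 8.48), and Gsr 77.7 CPM in vehicle replicate 3 (57.5 to 60.2).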

How the results depend on the processing

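Across 17 alternatives, the count of transporter genes called higher was 2 in the fit reported, 4 with a surrogate variable (Slc1a4 and Slc38a1 added, in a fit that called 20.8% of all genes against 8.5%) and 1 to 3 when libraries were left out (each in turn, or vehicle replicate 4 together with S1P replicate 5), the 1 being without S1P replicate 6 (3.63% of all genes called). The count called lower was 0, became 1 (Slc7a3) with GC offsets and stayed at 0 when libraries were left out. Signs turned only in genes not called. The log2 fold change of Slc3a2 was -0.014 with DESeq2 size factors and with DESeq2, and -0.069 to 0.20 with libraries left out. Slc7a11 ran from -0.97 to 0.45 with libraries left out. The log2 fold change of Slc1a5 was 0.0701 with a surrogate variable, 0.16 with GC offsets and -0.17 to 0.22 with libraries left out. The log2 fold change of Myc was 0.21 with a surrogate variable, 0.068 with GC offsets, 0.0397 with limma-voom and -0.22 to 0.34 with libraries left out. Cdh1 was at 0.0044 with limma-voom, 0.10 with a surrogate variable and -0.26 to 0.16 with libraries left out, Col1a2 at -0.089 to 0.32 and Rragc at -0.16 to 0.0047. The cause of these changes was not tested. No paired analysis was possible because the groups share no replicate number. Changes of the size of Slc38a1 and Slc38a2 (1.29-fold and 1.21-fold) did not pass the test in these genes. Slc7a3 rests on 6 to 20 counts a library.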
